A study of Mus musculus with 3 samples.

Results

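The genes described here are 37 targets and partners of ATF4, the transcription factor of the amino acid response, without the aminoacyl-tRNA synthetases. They were taken by gene symbol from the deposited expression files, and all 37 were found among 22068 listed genes. The list had been noted earlier as lower in both altered lines of this study, so its levels relative to the control are given as a description and no test is made of them. It was split into 6 transcription factors, 10 enzymes of serine, one-carbon and other amino acid synthesis, 9 amino acid transporters and 12 stress effectors.

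The RNA came from 3 stable lines of C2C12, a mouse myoblast line that fuses into myotubes when serum is withdrawn. The lines had been infected with lentivirus carrying Linc-RAM (overexpression), a short hairpin RNA against Linc-RAM (knockdown) or the empty vector (control), and all were selected with blasticidin. Polyadenylated RNA was sequenced after 12 h in medium with 2% horse serum, which followed growth in 10% fetal bovine serum. In the study's constructs a CMV promoter drove Linc-RAM and a U6 promoter drove the hairpins. The control carried no hairpin, and neither the hairpin that was sequenced nor whether each line was a clone or a pool is stated in the labels or methods. Each line gave 1 library, so differences between lines have no replicate check, and line, infection and library cannot be told apart.

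When amino acids run short or unfolded protein builds up, kinases phosphorylate the initiation factor eIF2, overall translation slows and the Atf4 mRNA is translated more. ATF4 protein then binds, often with a C/EBP family partner, to a composite site called the C/EBP-ATF response element (CARE) and switches on genes that make and import amino acids, together with genes that restrain growth. Because ATF4 is controlled largely at translation, its mRNA level does not measure its activity. In muscle cells the same pathway meets the mTORC1 pathway, which also raises ATF4, and some of its products, such as FGF21 and GDF15, are secreted as stress hormones.

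The core of the CARE is usually written TGATGCAA, and a looser form, TGATGNAA, takes in the site of the asparagine synthetase promoter. Both forms were searched on both strands in RefSeq promoter windows (build GRCm38.p6) of 300 bases, from 250 before to 50 after each start site. Of the 37 genes, 32 had a window. TGATGCAA lay in a window of 8 of the 32 (25%), while 1.03% of all 27025 gene symbols with a window held it. TGATGNAA, which includes the exact form, lay in 10 of the 32 (31.2%) and in 4.51% of all symbols. The sites are shown because the exact core recurs in genes of every role. Each is read in the direction of its gene with 10 bases on either side, the match is in capitals, and TTGCATCA is the core read from the other strand. The list was chosen as targets and partners of ATF4, so a higher share than over all symbols can follow from that choice. The shares are therefore no test of the list. A match is a description of these letters and not evidence of binding.
Atf3, chr1:191183426-191183453, minus strand: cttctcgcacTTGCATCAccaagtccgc
Asns, chr6:7693215-7693242, minus strand: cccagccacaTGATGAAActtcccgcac
Pycr1, chr11:120643834-120643861, minus strand: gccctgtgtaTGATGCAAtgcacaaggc
Slc7a11, chr3:50443662-50443689, minus strand: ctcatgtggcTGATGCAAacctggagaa
Slc7a11, chr3:50443643-50443670, minus strand: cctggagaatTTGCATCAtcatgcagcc
Slc1a4, chr11:20332700-20332727, minus strand: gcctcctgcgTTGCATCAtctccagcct
Trib3, chr2:152344029-152344056, minus strand: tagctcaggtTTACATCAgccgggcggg
Chac1, chr2:119351039-119351066, plus strand: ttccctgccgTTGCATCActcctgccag
Nupr1, chr7:126625563-126625590, minus strand: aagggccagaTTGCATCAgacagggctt
Vldlr, chr19:27216810-27216837, plus strand: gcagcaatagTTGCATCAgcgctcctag
Fgf21, chr7:45615612-45615639, minus strand: gacccccccaTTGCATCAtccgtccagg

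**Figure D1:**
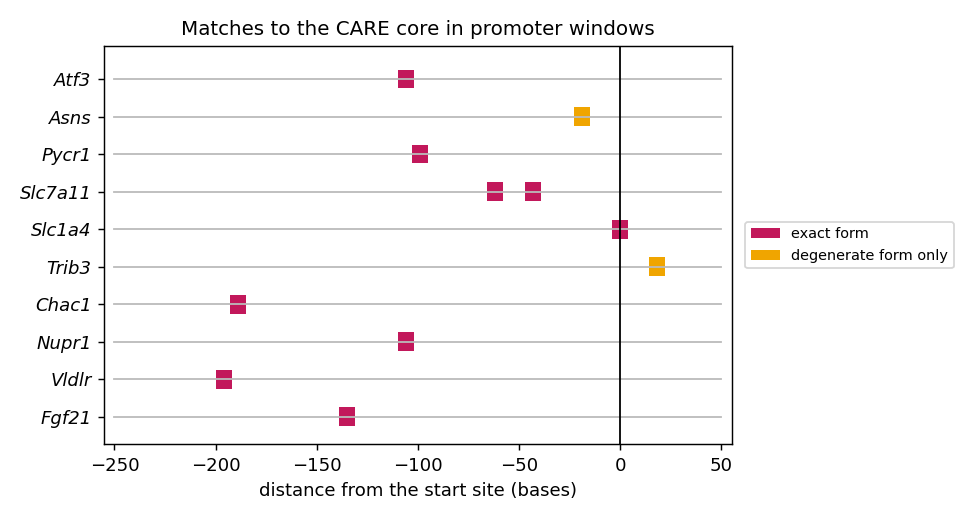
Positions of the CARE core in the promoter windows of 10 genes. The x axis gives the distance from the annotated start site in bases, each grey line is 1 window, and coloured boxes are matches of 8 bases to TGATGCAA (exact form) or only to TGATGNAA (degenerate form). The pair of matches in Slc7a11 lies within 66 bases of its start site, and those of Vldlr and Chac1 lie farthest upstream, beginning 200 and 193 bases before it.

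The upstream stretches of Asns and Chac1, which had the lowest ratios to the control in the overexpression library among the measured genes, and of Slc7a11, the only one with a pair of exact matches, are given up to the last base before the start site.
Asns, chr6:7693210-7693329, minus strand: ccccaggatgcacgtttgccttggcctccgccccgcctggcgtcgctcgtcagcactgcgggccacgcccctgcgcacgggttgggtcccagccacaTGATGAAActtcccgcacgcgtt
Chac1, chr2:119351022-119351241, plus strand: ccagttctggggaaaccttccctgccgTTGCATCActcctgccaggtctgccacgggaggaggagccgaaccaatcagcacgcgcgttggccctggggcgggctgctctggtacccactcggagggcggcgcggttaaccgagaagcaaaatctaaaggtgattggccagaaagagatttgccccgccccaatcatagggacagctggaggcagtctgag
Slc7a11, chr3:50443614-50443733, minus strand: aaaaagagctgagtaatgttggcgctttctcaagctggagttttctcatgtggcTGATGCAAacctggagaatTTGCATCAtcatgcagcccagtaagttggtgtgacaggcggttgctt

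Levels are RPKM (reads scaled to gene length in kilobases and to library size) as deposited. Whole reads could be recovered from the RPKM steps, at totals of 2105513 reads with overexpression, 1878146 with knockdown and 5130481 in the control. The altered lines thus held 41.0% and 36.6% of the control's reads, and the median gene tested had 37, 32 and 88 reads. Genes were compared where their mean over the libraries reached 1 RPKM, which left 10172 genes, and 10171 of them in each comparison with the control. A ratio is RPKM over RPKM with no pseudocount, and the interval after it is an exact (Clopper-Pearson) 95% interval from the recovered reads. It covers counting error only, and read numbers are lower estimates where no annotated length gave whole reads. Linc-RAM itself, listed as 2310015B20Rik, was at 1.07 RPKM with overexpression and at 0 in the knockdown and control libraries, so its level does not check the labels. Myoblast markers were present in every library (Des at 386, 145 and 291 RPKM in the overexpression, knockdown and control libraries). With Myod1, Myf5, Cdh15 and Itga7 they summed to 533, 194 and 359 RPKM. The fibroblast markers Pdgfra, Col1a1, Col3a1, Dcn and Thy1 were also present, at sums of 206, 221 and 246 RPKM in the same order. Most of this came from Col3a1 (167, 148 and 163 RPKM) and Col1a1, with Thy1 at 0 throughout. The adipocyte markers Adipoq, Plin1 and Cidec were at 0 in all 3. The endothelial markers Pecam1, Cdh5 and Kdr summed to 0.144, 0.134 and 0 RPKM with overexpression, knockdown and control, with Kdr at 0 throughout. The macrophage markers Ptprc, Cd68, Csf1r and Emr1 summed to 0.594, 2.00 and 1.17 RPKM, mostly from Cd68, with Ptprc and Emr1 at 0 throughout.

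Of the 37 genes, 31 passed the filter. Because the mean includes the control, a gene that was high only there could pass. Atf3, Pycr1, Cth, Slc7a3, Vldlr and Fgf21 lay below it. With overexpression, 24 of the 31 were below the control, where 49.6% of all genes tested were, and 4 were at least 2-fold lower (12.9%, against 3.47% of all genes). The gene at least 2-fold higher was Gdf15 (3.7% of all genes were higher by that much). The median log2 ratio was −0.35, against 0.00 over all genes tested.

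With knockdown, 22 of the 31 were below the control (51.6% of all genes were), and 11 were at least 2-fold lower (35.5%, against 4.19% of all genes). None was at least 2-fold higher (3.44% of all genes). The median log2 ratio was −0.69, against −0.02 over all genes tested. In these comparisons 19 genes lay below the control in both lines, which is what the list was noted for, where 30.7% of all 10170 genes with both ratios did. Both comparisons rest on the same control library. The members at least 2-fold lower in each were Atf5, Asns, Trib3 and Chac1 (12.9% of the 31, against 0.787% of all genes).

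Counting error left part of these ratios undecided. The interval lay below 1 for 12 of the 31 with overexpression (8.6% of all genes) and for 19 with knockdown (10.4%). It lay above 1 for 4 with overexpression (9.42%), namely Gdf15, Ppp1r15a, Xpot and Slc7a11, and for 2 with knockdown (9.02%), Ppp1r15a and Slc38a2. Summed over all 37 genes, the level was 474 RPKM with overexpression and 423 with knockdown, against 616 in the control. In bulk RNA, fewer cells expressing a gene and less RNA per cell cannot be told apart.

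**Figure D2:**
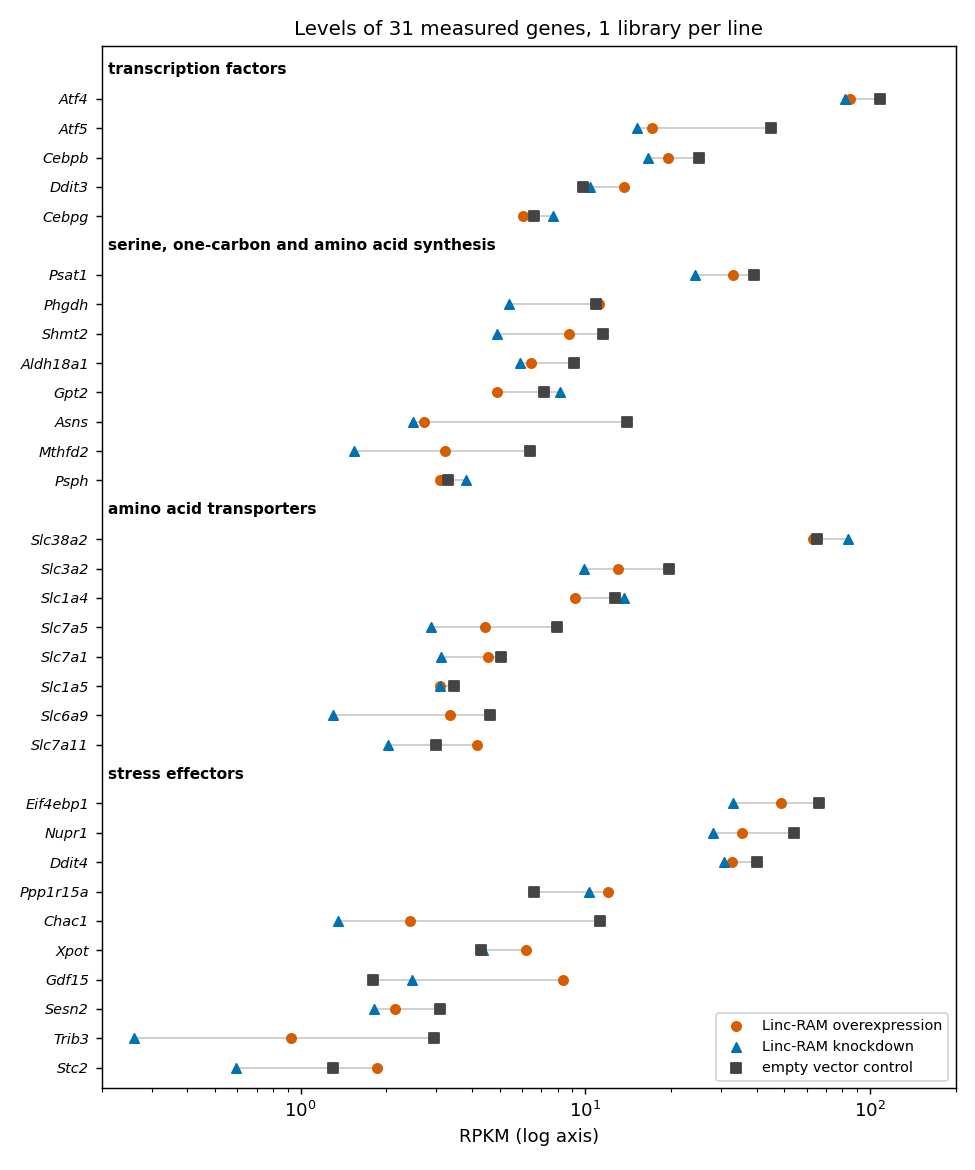
Levels of the 31 genes that passed the filter, grouped by role and ordered by mean level within a role. The x axis is RPKM on a log scale, and each point is 1 library (circles overexpression, triangles knockdown, squares control). The control square is the rightmost point for Asns at 14.1 RPKM and for Chac1 at 11.3 RPKM, and the leftmost for Gdf15 at 1.80 RPKM and Ppp1r15a at 6.60 RPKM.

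Among the transcription factors, Atf4 and Atf5 were below the control in both lines, while Ddit3 was not. Atf4 (chromosome 15 of mm9, 80085614 to 80087970) was the most abundant gene of the list, at 85.4 RPKM with overexpression and 81.8 with knockdown, against 108.9 in the control. Its ratios were 0.784 (0.687 to 0.891) and 0.751 (0.653 to 0.861), from 310, 265 and 964 reads. Atf5, a bZIP factor that is itself induced by ATF4 and by stress at translation (chromosome 7, 52067627 to 52072028), was at 17.2 and 15.2 RPKM in the overexpression and knockdown libraries, against 44.9 in the control.

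The Atf5 ratios of 0.382 (0.294 to 0.491) and 0.339 (0.253 to 0.447) were the lowest of the factors and rest on 72, 57 and 459 reads. Cebpb, a C/EBP factor that pairs with ATF4, stood at 19.6 and 16.6 RPKM in the overexpression and knockdown libraries, against 25.0 in the control. Only its knockdown ratio, 0.665 (0.473 to 0.919), had an interval below 1, and the ratio with overexpression was 0.783 (0.578 to 1.05).

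Cebpg, the other C/EBP partner listed, was at 6.06, 7.70 and 6.59 RPKM with overexpression, knockdown and control. Ddit3 encodes CHOP, a factor that ATF4 induces in prolonged stress. It was at 13.6 and 10.4 RPKM in the overexpression and knockdown libraries, against 9.85 in the control, with ratios of 1.38 (0.812 to 2.31) and 1.06 (0.565 to 1.88). For Cebpg and Ddit3 no difference from the control was detectable at this depth.

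Atf3, a stress-induced factor downstream of ATF4, lay below the filter. It had 9 reads with overexpression (2.16 RPKM) and none with knockdown, where 3 reads would be 0.808 RPKM, against 4 reads in the control (0.395 RPKM). The overexpression ratio was 5.48, with an interval of 1.53 to 24.4. Atf3 thus stood above the control in the line where Atf4 and Atf5 stood below it.

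In the group of synthesis enzymes, Asns had the lowest ratios in both lines, and most enzymes of the serine and one-carbon route were lower with knockdown. Asns makes asparagine (chromosome 6, 7625169 to 7643254) and carries the TGATGAAA site shown above. It was at 2.71 RPKM with overexpression and 2.49 with knockdown, against 14.1 in the control. The ratios were 0.193 (0.0941 to 0.356) and 0.177 (0.0792 to 0.346), from 11, 9 and 139 reads.

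The serine route starts with Phgdh, Psat1 and Psph, which turn a glycolytic intermediate into serine. Phgdh was at 11.2 RPKM with overexpression and 5.41 with knockdown, against 10.9 in the control. Its overexpression ratio was 1.02 (0.701 to 1.46) and its knockdown ratio 0.494 (0.286 to 0.811), so the knockdown library alone was apart. Psat1 was at 33.0 and 24.3 RPKM in the overexpression and knockdown libraries, against 39.2 in the control, ratios of 0.843 (0.694 to 1.02) and 0.619 (0.491 to 0.773).

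Psph, the last step, was at 3.09, 3.81 and 3.30 RPKM with overexpression, knockdown and control, all within counting error. Serine then feeds mitochondrial folate metabolism through Shmt2 and Mthfd2. Shmt2 was at 8.75 and 4.90 RPKM in the overexpression and knockdown libraries, against 11.5 in the control, ratios of 0.758 (0.523 to 1.08) and 0.425 (0.255 to 0.676). Mthfd2 was at 3.21 and 1.54 RPKM in these libraries, against 6.40 in the control, ratios of 0.502 (0.188 to 1.15) and 0.241 (0.0474 to 0.766) from at least 7, 3 and 34 reads.

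The remaining enzymes were mixed. Aldh18a1, which opens proline synthesis, was at 6.46 and 5.89 RPKM in the overexpression and knockdown libraries, against 9.12 in the control, ratios of 0.709 (0.503 to 0.983) and 0.646 (0.443 to 0.920). Pycr1, which closes it, was at 0.652 and 0.731 RPKM in the altered lines against 1.40 in the control, below the filter and within counting error. Gpt2, the mitochondrial alanine transaminase, differed between the lines, at 4.89 RPKM with overexpression and 8.14 with knockdown, against 7.15 in the control. Cth, which makes cysteine from cystathionine, had no read with overexpression (3 reads would be 0.791 RPKM), 2 with knockdown and 10 in the control.

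Among the transporters, the subunits of the large neutral amino acid exchanger were below the control in both lines, while Slc38a2 was within counting error of it with overexpression and above it with knockdown. Slc7a5 (LAT1) exchanges large neutral amino acids and was at 4.46 RPKM with overexpression and 2.88 with knockdown, against 7.93 in the control. Its ratios were 0.562 (0.373 to 0.826) and 0.363 (0.212 to 0.588). Slc3a2 encodes CD98, the heavy chain that LAT1 and xCT share, and was at 13.0 and 9.90 RPKM in the overexpression and knockdown libraries, against 19.7 in the control, ratios of 0.660 (0.510 to 0.846) and 0.502 (0.370 to 0.672).

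Slc7a11, the xCT cystine transporter, went to either side of the control. It was at 4.17 RPKM with overexpression and 2.02 with knockdown, against 2.98 in the control, ratios of 1.40 (1.05 to 1.85) and 0.678 (0.454 to 0.988) from 81, 35 and 141 reads. Its promoter held the pair of exact core matches. Slc38a2 (SNAT2), a sodium-coupled importer of small neutral amino acids, was at 63.1 RPKM with overexpression and 83.5 with knockdown, against 65.3 in the control, and had the highest level of the group.

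The Slc38a2 ratios were 0.966 (0.879 to 1.06) and 1.28 (1.17 to 1.40), so the knockdown library was the one above the control. The summed transporter level, 105 RPKM with overexpression and 119.5 with knockdown against 122 in the control, therefore hides the other members. Without Slc38a2 the 8 others summed to 42.0 and 36.0 RPKM in the overexpression and knockdown libraries, against 56.8 in the control. Slc6a9, a glycine transporter, was at 3.34 and 1.30 RPKM in these libraries against 4.65 in the control, and only its knockdown ratio, 0.280 (0.117 to 0.580), had an interval below 1.

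Slc7a1, the cationic amino acid transporter CAT1, had ratios of 0.904 (0.676 to 1.20) with overexpression and 0.617 (0.430 to 0.866) with knockdown. Slc1a4, a neutral amino acid exchanger with the core across its start site, was at 9.19 RPKM with overexpression and 13.7 with knockdown, against 12.8 in the control. The Slc1a4 interval was below 1 with overexpression alone (0.721, 0.550 to 0.934). Slc1a5, the glutamine carrier ASCT2, was at 3.10, 3.09 and 3.46 RPKM with overexpression, knockdown and control, and Slc7a3 had at most 3 reads in any library.

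Among the 31 measured genes, the stress effectors held the lowest ratios with knockdown, those of Trib3 and Chac1, and the highest with overexpression, that of Gdf15. Chac1 encodes an enzyme that degrades glutathione (chromosome 2, 119176965 to 119180117). It was at 2.42 RPKM with overexpression and 1.36 with knockdown, against 11.3 in the control, ratios of 0.214 (0.0898 to 0.440) and 0.120 (0.0320 to 0.318) from 8, 4 and 91 reads. Trib3, a pseudokinase that feeds back on ATF4 and CHOP (chromosome 2, 152163158 to 152169768), was at 0.926 and 0.260 RPKM in the overexpression and knockdown libraries, against 2.95 in the control.

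The Trib3 ratios of 0.314 (0.0806 to 0.889) and 0.0881 (0.00216 to 0.529) rest on 4, 1 and 31 reads. With knockdown this was the lowest ratio among the 31, and its 1 read was the fewest of the 31 in the knockdown library. Other effectors that are well expressed had ratios nearer to 1. Eif4ebp1 (4E-BP1, which holds back cap-dependent translation) was at 48.9 and 33.1 RPKM in the overexpression and knockdown libraries, against 66.4 in the control, ratios of 0.737 (0.584 to 0.923) and 0.499 (0.373 to 0.657).

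Nupr1, a small stress-induced chromatin protein, was at 35.7 and 28.1 RPKM in the overexpression and knockdown libraries, against 54.2 in the control, ratios of 0.658 (0.466 to 0.913) and 0.518 (0.346 to 0.755). Ddit4 (REDD1, an inhibitor of mTORC1) was at 32.7 and 30.7 RPKM in these libraries against 40.3 in the control, and its interval was below 1 with knockdown alone (0.761, 0.602 to 0.956). Sesn2, a leucine sensor that also restrains mTORC1, was at 2.15 and 1.80 RPKM in the altered lines against 3.08 in the control. It had at least 4, 3 and 14 reads, and was within counting error at these lower estimates.

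Other effectors stood above the control. Ppp1r15a encodes GADD34, which returns eIF2 to its unphosphorylated form. It was at 12.02 RPKM with overexpression and 10.3 with knockdown, against 6.60 in the control, ratios of 1.82 (1.28 to 2.58) and 1.56 (1.05 to 2.27). Gdf15, a secreted stress hormone (chromosome 8, 73153292 to 73156355), was at 8.32 RPKM with overexpression and 2.46 with knockdown, against 1.80 in the control, from at least 19, 5 and 10 reads.

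The overexpression ratio of Gdf15 was 4.63 (2.05 to 11.1), and its knockdown ratio of 1.37 (0.366 to 4.39) was within counting error. Xpot, the exportin for tRNA, was at 6.19, 4.36 and 4.30 RPKM with overexpression, knockdown and control, a ratio of 1.44 (1.07 to 1.92) with overexpression. Stc2, a secreted glycoprotein, was at 1.85 and 0.594 RPKM in the altered lines against 1.30 in the control. It had at least 7, 2 and 12 reads, and was within counting error at these lower estimates.

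Vldlr, a lipoprotein receptor below the filter, had 3 reads with overexpression (0.172 RPKM), 23 with knockdown (1.47 RPKM) and 45 in the control (1.06 RPKM). Its overexpression ratio was 0.162 (0.0323 to 0.506), while the knockdown ratio was 1.40 (0.806 to 2.36). Fgf21 had no read in either altered line and 2 in the control, so nothing can be said of it at this depth.

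**Figure D3:**
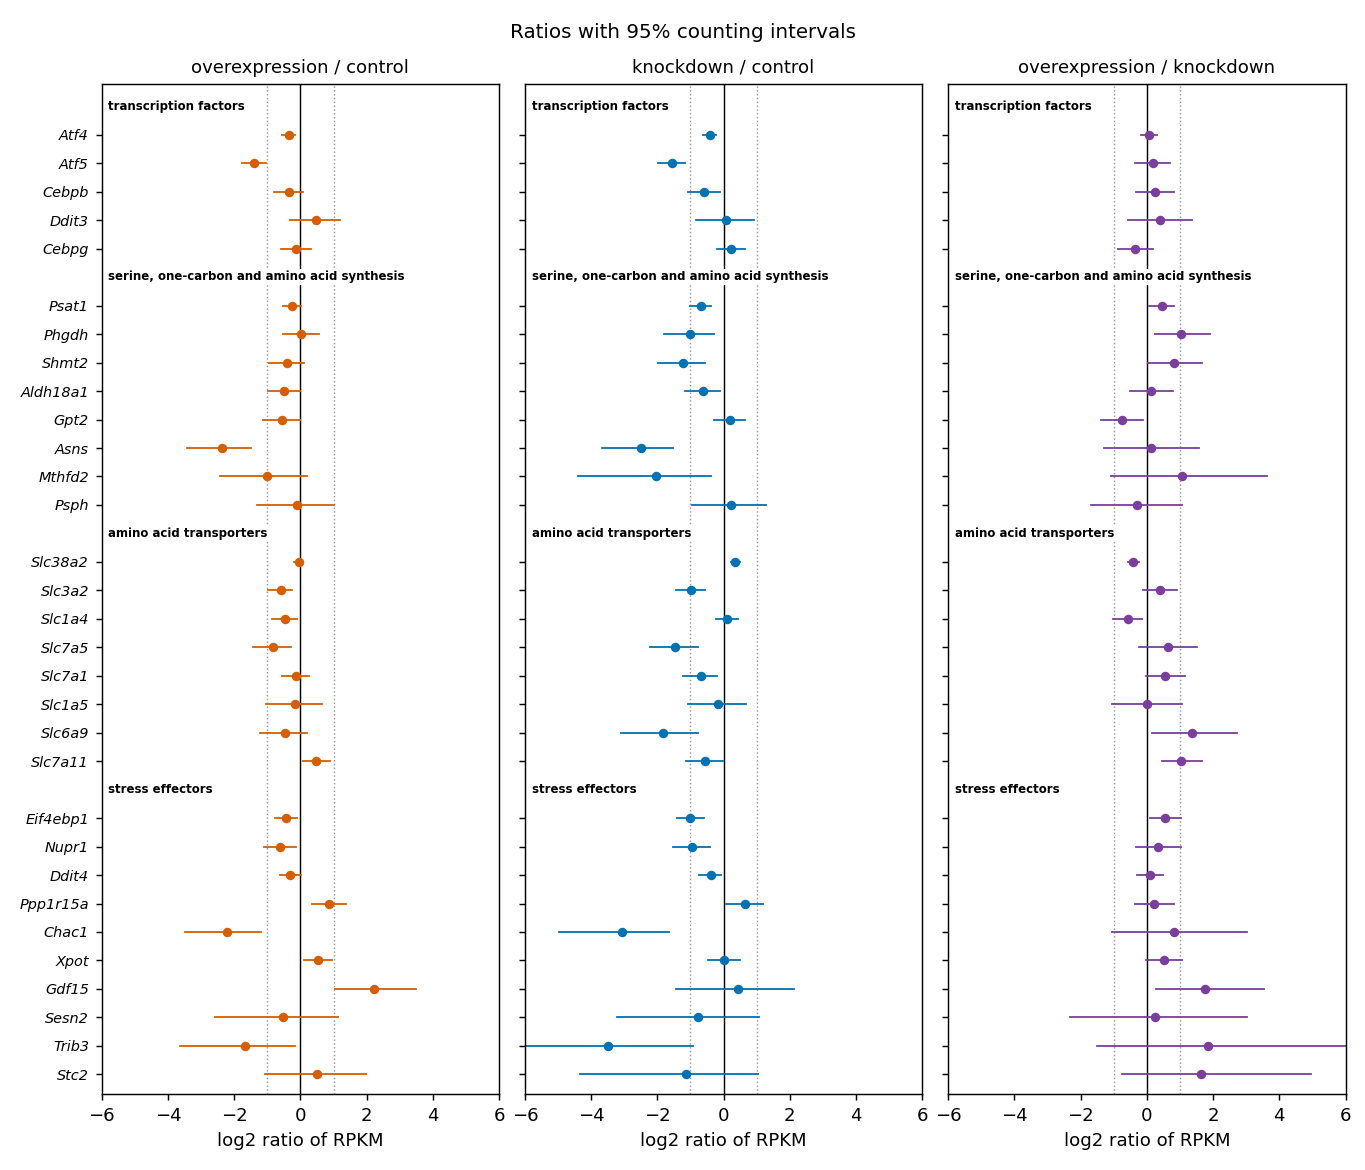
Log2 ratios of RPKM for the 31 genes in 3 comparisons, one panel each. Points are ratios, bars are exact 95% counting intervals (those of Trib3 run past the axis), and dotted lines mark 2-fold. Asns and Chac1 lie left of the lower 2-fold line against the control in both lines. All 10 stress effectors lie right of 0 in the panel of overexpression over knockdown, as do 5309 of all 10172 genes tested. Only 2 of these 10, Gdf15 and Eif4ebp1, have a bar wholly right of 0 there (9.76% of all genes).

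Several genes lay close to the 2-fold line. With knockdown, Phgdh at 0.494 and Eif4ebp1 at 0.499 were just inside it, and Slc3a2 at 0.502 and Nupr1 at 0.518 just outside. With overexpression, Mthfd2 at 0.502 was just outside. By role, the median log2 ratios with overexpression were −0.35 for 5 transcription factors, −0.45 for 8 synthesis enzymes, −0.32 for 8 transporters and −0.37 for 10 stress effectors. With knockdown they were −0.41, −0.85, −0.63 and −0.86 in the same order. At least 2-fold lower with knockdown were 1 factor, 4 enzymes, 2 transporters and 4 stress effectors.

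The overexpression and knockdown libraries were also compared with each other, which leaves the control library out. Of the 31 genes, 26 were higher with overexpression and 5 lower (47.8% of all genes tested were lower), and the median log2 ratio was 0.39, against 0.03 over all 10172 genes. At least 2-fold higher were 7 genes (6.08% of all genes), namely Phgdh, Mthfd2, Slc7a11, Slc6a9, Trib3, Stc2 and Gdf15, and none was at least 2-fold lower (5.09% of all genes). A median of this size was not particular to the list. Lists described below had medians of 0.38 (12 p53 targets), 0.34 (12 NRF2 targets) and 0.26 (20 cytosolic aminoacyl-tRNA synthetases). The median was 0.13 for 9 mTORC1 regulators with Myc, 0.09 for 17 genes of eIF2 signalling and 0.05 for 20 of endoplasmic reticulum folding. For 20 genes of amino acid metabolism and other reported ATF4 targets it was −0.02.

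Among the 31 genes, the counting interval lay above 1 for 7 (9.76% of all genes). They were Gdf15 at 3.39 (1.22 to 11.6), Slc6a9 at 2.56 (1.11 to 6.63), Phgdh at 2.07 (1.18 to 3.75), Slc7a11 at 2.06 (1.37 to 3.16), Shmt2 at 1.78 (1.03 to 3.17), Eif4ebp1 at 1.48 (1.06 to 2.06) and Psat1 at 1.36 (1.05 to 1.78). It lay below 1 for 3 genes (8.17%), Gpt2 at 0.600 (0.385 to 0.927), Slc1a4 at 0.671 (0.492 to 0.913) and Slc38a2 at 0.756 (0.678 to 0.842). Atf4 at 1.04 (0.883 to 1.23), Atf5 at 1.13 (0.785 to 1.62) and Asns at 1.09 (0.411 to 2.98) did not differ between these libraries beyond counting error, and the interval of Asns is wide.

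**Figure D4:**
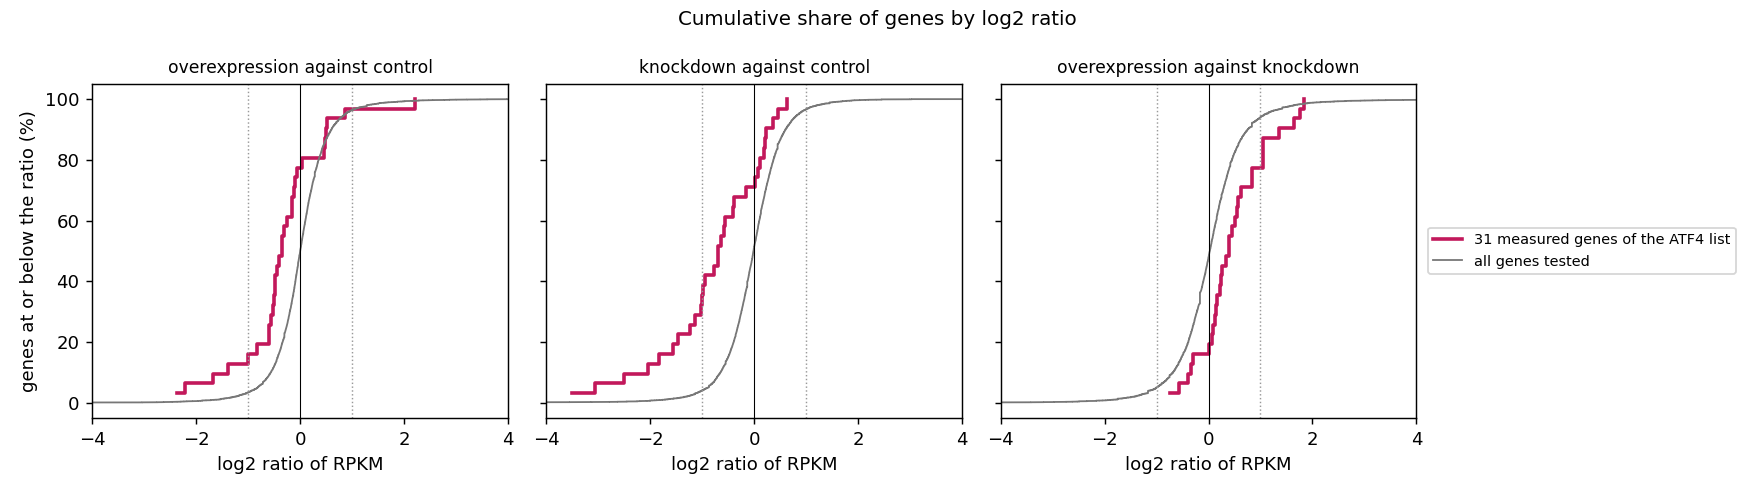
Cumulative share of genes (y axis, percent) at or below each log2 ratio of RPKM (x axis) in 3 comparisons, for the 31 measured genes and for all genes tested. The curve of the 31 lies left of that of all genes over most of its length against the control, with medians of −0.35 and −0.69, and to the right of it for overexpression over knockdown, with a median of 0.39.

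Upstream of ATF4 are the genes of eIF2 signalling. Of 17 measured genes for the eIF2 kinases, eIF2, its exchange factor eIF2B and their regulators, none was at least 2-fold lower in either line, which for a list of this length is near the shares of all genes given above (3.47% and 4.19%), and the medians were −0.03 with overexpression and −0.12 with knockdown. The counting interval lay above 1 for 3 of them with overexpression (9.42% of all genes) and below 1 for 1 (8.6%), Eif2ak2 at 0.694 (0.491 to 0.965). With knockdown it lay above 1 for 2 (9.02%) and below 1 for 1 (10.4%). The 2 were Eif2ak2 at 1.32 (1.001 to 1.74), which thus lay on either side of the control, and Eif2s3x at 1.16 (1.02 to 1.33). Those above 1 with overexpression were Eif2b3 at 2.30 (1.11 to 4.73), the 1 gene of the list at least 2-fold higher, Gcn1l1 at 1.55 (1.19 to 2.02) and Eif2s3x at 1.14 (1.006 to 1.30). Of these, Eif2b3 and Gcn1l1 were chosen after their values were seen. These mRNA levels say nothing of eIF2 phosphorylation. Among 20 measured genes of amino acid metabolism and other reported ATF4 targets, 2 were at least 2-fold lower with overexpression (10%, against 3.47% of all genes) and 2 with knockdown (10%, against 4.19%), and the medians were −0.20 and −0.22. They were Pck2 and Aldh1l2 with overexpression, and Aldh1l2 and Shmt1 with knockdown. Pck2, which makes mitochondrial phosphoenolpyruvate, was at 5.73 and 8.61 RPKM in the overexpression and knockdown libraries, against 15.0 in the control, ratios of 0.383 (0.268 to 0.534) and 0.576 (0.422 to 0.772). Aldh1l2, a mitochondrial folate enzyme, was at 1.65 and 2.03 RPKM in these libraries against 7.66 in the control, ratios of 0.216 (0.131 to 0.338) and 0.265 (0.165 to 0.407). Shmt1, the cytosolic counterpart of Shmt2, had a knockdown ratio of 0.137 (0.00330 to 0.854) at 0.258 RPKM, against 1.89 in the control. Aldh1l2 and Shmt1 were chosen after their values were seen. Others of the list stood above the control, Cebpd at 1.87 (1.17 to 2.94) with overexpression and, with knockdown, Jdp2 at 1.48 (1.11 to 1.95) and Slc38a1 at 1.40 (1.12 to 1.74).

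The 20 cytosolic aminoacyl-tRNA synthetases, which ATF4 also induces, had median log2 ratios of −0.11 (overexpression) and −0.43 (knockdown). With knockdown 2 of them (10%, against 4.19% of all genes) were lower by 2-fold or more, Aars at 0.393 (0.277 to 0.544) and Sars at 0.412 (0.296 to 0.561). With overexpression 0 were (3.47% of all genes). The counting interval lay below 1 for 5 synthetases with overexpression (8.6% of all genes) and for 8 with knockdown (10.4%), and above 1 for 0 in either line. The 20 genes of endoplasmic reticulum folding, the arm of the unfolded protein response that runs through ATF6 and XBP1, had medians of −0.10 and −0.11. With overexpression 2 of them (10%, against 3.47% of all genes) were at least 2-fold lower, Herpud1 at 0.491 (0.322 to 0.725) and Sdf2l1 at 0.480 (0.243 to 0.878). With knockdown 1 was (5%, near the 4.19% of all genes), Sdf2l1 at 0.455 (0.217 to 0.869), while Herpud1 was at 1.37 (1.03 to 1.81). No test of the difference between these lists and the 31 genes was made. Markers of other states moved with the lines as well. Myog and 4 further markers of differentiating myocytes summed to 29.0 RPKM with overexpression and 3.98 with knockdown, against 5.33 in the control. Most of this was Myog, at 22.1, 3.60 and 3.95 RPKM in the same order. Mylpf was at 3.15, 0 and 0.258 RPKM and Actc1 at 3.76, 0.383 and 0.701 RPKM. Tnnt1 was at 0 in both altered lines and 0.417 RPKM in the control, and Myh3 was at 0 in all. The smooth muscle markers Acta2, Cnn1, Actg2 and Myh11 summed to 406 and 595 RPKM in the overexpression and knockdown libraries, against 1138 in the control, with Myh11 at 0 in all. Their part in the levels of the ATF4 list was not tested.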

How the data were processed

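The 3 lines gave 1 library each. Reads were aligned by the authors to the mm9 assembly using TopHat (1.4.1 in the submitters' processing notes), gene coverage came from DEGSeq, and the deposited values are RPKM, 1 per gene symbol. The labels and methods state neither the gene annotation, the handling of multiply mapped reads nor the total behind RPKM. The total of each library was found as the value inversely proportional to RPKM × length that recurred most often over GENCODE lengths on mm9, which marks genes with 1 read. It recurred 265, 278 and 262 times in the overexpression, knockdown and control libraries, against a median of 1. Reads per gene were taken at an annotated length if it made the reads of every library whole, within 1e-05 per read (24.5% of genes tested), and otherwise at the smallest such length from 200 nt. Reads without molecular identifiers are not independent molecules, so intervals and floors (3 reads for a gene at 0) cover counting error only. Genes were compared by RPKM ratio at 2-fold, the criterion in the study's methods (a figure legend of the study gives 1.5-fold, tried as an alternative), with no pseudocount and a mean of at least 1 RPKM. A gene at 0 in the first library counted as lower and at 0 in the second as higher.

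All 37 genes are reported. From each comparison list at most the 2 highest and 2 lowest ratios at a mean of at least 5 RPKM are named. Genes named outside this rule are said to be chosen after their values were seen. Members and lists were chosen with earlier results of these data known. The steps were tested on simulated data. Every simulated gene had an annotated length, so recovery at the smallest length, used for most genes here, was not checked. Positions of genes are those of GENCODE on mm9, and promoter windows are RefSeq on GRCm38.p6. For Cth, Slc7a5, Slc7a3, Slc1a5 and Eif4ebp1 no window was used. Alternatives were other filters, added constants, rescaling, a 1.5-fold threshold and the counting interval. Values were computed in Python 3.11.15 using pandas 2.3.3, scipy 1.17.1 (intervals) and numpy 2.4.6, with plots drawn in matplotlib 3.10.9.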

Additional observations from a re-analysis of the deposited data

Results flagged for a closer look

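Of the 31 measured genes, 8 lay on opposite sides of the control in the altered lines, 5 of them below it with overexpression and 3 above. Of all 10170 genes with both ratios, 1919 lay below it with overexpression and on the other side with knockdown, and 2124 the reverse. For 5 of the 8 the ratio of overexpression to knockdown had a counting interval that left out 1. Over all genes tested that interval lay above 1 for 9.76% and below 1 for 8.17%. The share among genes on opposite sides of the control was not computed. Such genes are selected for a difference between the lines, so 5 of the 8 is a description only. The ratio of overexpression to knockdown was 2.07 for Phgdh, 0.600 for Gpt2, 2.06 for Slc7a11, 0.756 for Slc38a2 and 0.671 for Slc1a4. For Phgdh and Slc7a11 the overexpression library was the one above the control, and for Gpt2, Slc38a2 and Slc1a4 it was the knockdown library. A ratio to the control was within counting error for 4 of them, namely 1.02 (0.701 to 1.46) for Phgdh with overexpression, 0.966 (0.879 to 1.06) for Slc38a2 with overexpression, and with knockdown 1.14 (0.815 to 1.57) for Gpt2 and 1.07 (0.844 to 1.36) for Slc1a4. Both lines share the control library and each is 1 library, so the difference between their responses was not tested.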

How the results depend on the processing

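The counts depended on the threshold more than on scaling. With overexpression, the 4 genes at least 2-fold lower became 8 at 1.5-fold and 12 by counting interval, and the 1 higher gene became 0 at a mean of at least 5 RPKM, 2 with no filter, 2 at 1.5-fold and 4 by interval. With knockdown, the 11 lower genes became 7 at a mean of at least 5 RPKM, where 20 genes were left, 18 at 1.5-fold and 19 by interval, and the 0 higher genes became 1 at 1.5-fold and 2 by interval. For overexpression over knockdown, the 7 higher genes became 1 at a mean of at least 5 RPKM and 1 with 1 RPKM added, and the 0 lower genes became 1 with no filter, 1 at 1.5-fold and 3 by interval. Over the filters, added constants and scalings tried, the median log2 ratio ranged between −0.42 and −0.35 with overexpression, between −0.69 and −0.55 with knockdown, and between 0.23 and 0.39 for overexpression over knockdown. With 1 RPKM added, or with the median of all genes set to 0, each of 93 single log2 ratios stayed within its counting interval. No paired analysis was possible because each line had 1 library. By recovered reads, depth limits Trib3, Chac1, Mthfd2, Sesn2 and Stc2 most among the measured genes, each with under 10 in both altered lines. These read numbers are lower estimates. The lengths used for Mthfd2, Sesn2 and Stc2 were well below their longest annotated ones, so their true reads may be more.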

Other observations

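Some genes of the list are also targets of other pathways. Slc7a11 is a target of NRF2, the factor of the oxidative stress response. The 12 measured NRF2 targets had median log2 ratios of −0.10 with overexpression and −0.10 with knockdown. Txnrd1, thioredoxin reductase, was at 31.4 RPKM with overexpression and 20.005 with knockdown, against 18.2 in the control, an overexpression ratio of 1.72 (1.47 to 2.02). Hmox1, haem oxygenase, was at 6.93 and 8.45 RPKM in these libraries, against 15.2 in the control, ratios of 0.456 (0.278 to 0.715) and 0.555 (0.346 to 0.859).

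Gdf15 and Sesn2 are also p53 targets. Of 12 measured p53 targets, neither line had one that differed from the control by 2-fold or more, as few of all genes did (3.47% lower and 3.7% higher with overexpression, 4.19% and 3.44% with knockdown), and the medians were 0.20 with overexpression and −0.05 with knockdown. The counting interval lay above 1 for 4 of them with overexpression (9.42% of all genes), Plk2, Sesn1, Cdkn1a at 1.53 (1.35 to 1.74) and Mdm2 at 1.52 (1.20 to 1.91). It lay below 1 for 0 with overexpression (8.6% of all genes). With knockdown it lay below 1 for 5 (10.4% of all genes), Bax, Plk2, Cdkn1a, Phlda3 and Ccng1, and above 1 for 1 (9.02%), Sesn1. Cdkn1a, Mdm2, Phlda3 and Ccng1 were chosen after their values were seen. Plk2, a polo-like kinase, was at 29.0 RPKM with overexpression and 9.31 with knockdown, against 17.2 in the control. Sesn1, the paralogue of Sesn2, was at 10.7 and 13.1 RPKM in these libraries against 6.60 in the control, ratios of 1.62 (1.19 to 2.18) and 1.98 (1.47 to 2.66). Of 9 measured mTORC1 regulators with Myc, only Deptor, an inhibitor of mTOR, was at least 2-fold from the control. It was at 10.8 RPKM with knockdown against 4.42 in the control (2.45, 1.75 to 3.43). Of all genes, 3.44% were at least 2-fold higher with knockdown and 3.7% with overexpression, and 4.19% and 3.47% lower. The medians of the list were 0.12 with overexpression and −0.10 with knockdown. With overexpression the counting interval lay above 1 for 1 of the 9 (9.42% of all genes), Mtor at 1.66 (1.18 to 2.32). Mtor was chosen after its value was seen.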
